A study of Drosophila melanogaster with 8 samples.

Results

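The 3 Drosophila melanogaster lipocalin genes NLaz, GLaz and Karl were each measured with probe sets that carry that 1 gene symbol in the probe annotation. NLaz and GLaz have 1 probe set each and Karl has 2, so the genes are read by 4 of the 18769 probe sets other than controls. The genes were chosen by their levels in all 4 sample groups, so those levels and their differences are given as a description, with no test. The arrays are 8 Affymetrix Drosophila Genome 2.0 microarrays hybridised with RNA from organs of mated adult females aged 4 days. Organs came from 2 genotypes, wild type and Hr39(04443), the latter a mutation in the gene of the nuclear receptor Hr39. The spermathecae, the paired glands that store sperm, were separated from the rest of the lower reproductive tract, called the lower tract here. Each of the 4 groups of genotype and organ has 2 arrays. The labels name no wild-type strain, so a difference between the genotypes could also be one of strain background, which was not tested. The second array of a group is labelled a duplicate and is not said to come from separate animals, so all errors measure only the spread between these arrays, which may be technical.

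Lipocalins are small, mostly secreted proteins that fold into a barrel with a pocket for hydrophobic ligands such as fatty acids, sterols and retinoids. NLaz (Neural Lazarillo) and GLaz (Glial Lazarillo) are fly relatives of vertebrate apolipoprotein D, and both are known from fly work on stress resistance and metabolism. NLaz is expressed in fat body and neurons and has been placed downstream of JNK signalling, where it dampens insulin signalling. GLaz was named for its expression in glia. Karl is another fly lipocalin gene, and no role is given for it here.

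Values are signals of Affymetrix's MAS5 method, on a linear scale that the authors had set to a common trimmed mean on every array. Signals of the same probe set can be compared between arrays, and those of different probe sets cannot. Differences are on the log2 scale after adding 4 to each signal, with the standard error (SE) of a limma fit over all 8 arrays. The fit took in the 10113 probe sets that, in 1 group or more, reached the median of the array on each of the group's arrays. All 4 lipocalin probe sets were kept, the Karl probe sets through the lower tract alone. Calls for other genes mean a Benjamini-Hochberg adjusted p under 0.05 over the 10113 probe sets.

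Same-group arrays correlated at Pearson r between 0.957 and 0.968. On 1 array, wild-type spermathecae replicate 1, the ratio of the 3′ to the 5′ actin control was 7.09, against 1.34 to 2.14 on the other 7. The spermathecal secretory markers, 7 probe sets of 7 genes such as Send1 and Send2, summed to between 95280 and 130924 on the 4 spermathecal arrays and to between 263 and 5695 on the 4 lower-tract arrays. The lower-tract sums were 2031 and 263 in wild type and 5695 and 1081 in the mutant. Of the 7, 0 were called between the genotypes by limma in the lower tract and 1 had an unadjusted p under 0.05. In the spermathecae 0 of these 7 were called different between the genotypes by limma and 0 had an unadjusted p under 0.05, and the sums of wild type (95280 to 130924) and mutant (96447 to 127953) overlapped. Muscle markers ran the other way, with sums between 24248 and 28574 in the lower tract and between 1493 and 1759 in the spermathecae. Of the 4 probe sets of the mutated gene Hr39, all were lower on average in the mutant in both organs. Only 1630002_s_at was called, and only in the spermathecae, where it read 821 and 725 in wild type and 477 and 452 in the mutant (log2 difference -0.73, SE 0.18, limma adjusted p 0.0351). The labels do not say what the mutation does to the transcript.

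NLaz, the neural and fat body lipocalin, had its lowest level in mutant spermathecae. Its signal there was 21.3 and 27.5 on the 2 arrays, against 2196 and 2365 in wild-type spermathecae. The lower-tract signal was 3253 and 3744 in wild type and 1275 and 1365 in the mutant. The group means were 2280.2 ± 119 in wild-type spermathecae, 24.4 ± 4.37 in mutant spermathecae, 3499 ± 347 in the wild-type lower tract and 1320 ± 63.9 in the mutant lower tract (SD, n = 2 each). The order was therefore wild-type lower tract, wild-type spermathecae, mutant lower tract and mutant spermathecae, and no neighbouring groups in that order overlapped.

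The wild-type mean of NLaz in the spermathecae was 93.5 times the mutant mean, and the ratio of single arrays ran from 80.0 to 111. On the log2 scale the difference was -6.34 (SE 0.16), the second largest fall of the 10113 probe sets. Mutant spermathecae read NLaz at 1.20 and 1.37 times the median of their own arrays, which is the 53.2 and 56.0 percentile. That reading lies close to the middle of all probe sets, and no detection calls were available to say whether it is above background. With a pseudocount of 20 in place of 4 the log2 difference was -5.70. Over all probe sets tested, 3.89% were called lower in mutant spermathecae and 25.1% were lower with no overlap of the arrays, which is given as the background and not as evidence on NLaz.

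In the lower tract the mutant kept 37.7% of the wild-type NLaz mean, a log2 difference of -1.40 (SE 0.16), and the ratio of single wild-type to mutant arrays ran from 2.38 to 2.94. Here 3.33% of all probe sets were called lower and 23.7% were lower without overlap. NLaz was thus lower in the mutant in both organs, by 6.34 in one and 1.40 in the other on the log2 scale. The difference between the organs in that effect was -4.94 (SE 0.23), which ranked 9 by size in the negative direction. The interaction was called for 3.05% of all probe sets.

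Between organs of wild type, NLaz read 1.53 times higher in the lower tract than in the spermathecae, a log2 difference of -0.61 for spermathecae minus lower tract. Ratios of single arrays ran from 1.38 to 1.71. In the mutant the lower tract read 54.1 times higher, a log2 difference of -5.55. Without overlap, 32.7% of all probe sets were lower in the spermathecae of wild type and 34.1% in those of the mutant.

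**Figure D1:**
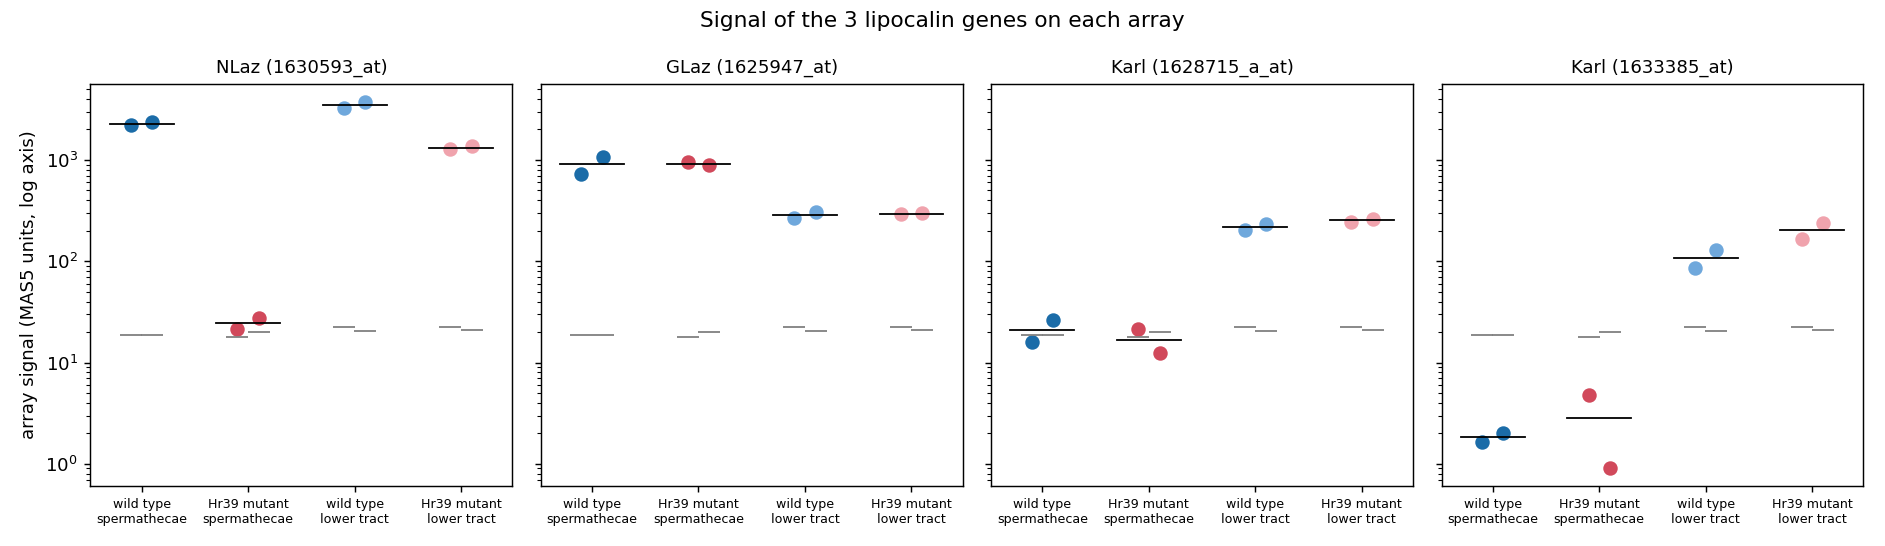
Signal of the 4 lipocalin probe sets on each array (MAS5 units, log axis), by group. Points are single arrays, long black lines are group means and short grey lines are the median signal of each array. NLaz sits at 21.3 and 27.5 in mutant spermathecae and above 1000 on the other 6 arrays, and both Karl probe sets are near or below the array median on all 4 spermathecal arrays.

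GLaz, the glial lipocalin, was higher in the spermathecae than in the lower tract in both genotypes and overlapped between the genotypes in each organ. Its signal was 728 and 1077 in wild-type spermathecae and 947 and 884 in mutant spermathecae. It read 265 and 307 in the lower tract of wild type and 293 and 297 in the mutant. All 4 spermathecal arrays lay above all 4 lower-tract arrays. The means of 903 ± 247 and 915 ± 44.0 in wild-type and mutant spermathecae, and of 286 ± 29.4 and 295 ± 2.95 in the lower tracts (SD, n = 2 each), put the groups in 2 pairs. The lower of the wild-type spermathecal values came from the array with the actin ratio of 7.09, whose part in the value was not tested.

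Spermathecae exceeded lower tract in GLaz by 3.16 times in wild type and by 3.10 times in the mutant, a log2 difference of 1.62 in both. Ratios of single arrays ran from 2.37 to 4.06 in wild type and from 2.98 to 3.23 in the mutant. The share of all probe sets higher in spermathecae without overlap was 37.0% in wild type and 44.4% in the mutant. Between the genotypes the log2 difference was 0.05 (SE 0.19) in each organ, with a 95% interval from -0.38 to 0.48.

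Karl was low in the spermathecae of both genotypes and higher in the lower tract, on both probe sets. The probe set 1628715_a_at read 16.0 and 26.1 in wild-type and 21.4 and 12.4 in mutant spermathecae. In the lower tract it read 203 and 235 in wild type and 246 and 264 in the mutant. The spermathecal values of this probe set lay on both sides of the array medians, which are drawn as grey lines in the plot of signals by group.

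The probe set 1633385_at of Karl read 1.66 and 2.01 in wild-type and 4.73 and 0.920 in mutant spermathecae. It read 85.5 and 129 in the wild-type and 165 and 239 in the mutant lower tract. Its 4 spermathecal values were all below the array median. On both Karl probe sets the lower tracts did not overlap between the genotypes, with the mutant higher, and the spermathecae did overlap.

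The log2 difference of spermathecae minus lower tract in Karl was -3.18 in wild type and -3.66 in the mutant on 1628715_a_at, and -4.22 and -4.95 on 1633385_at. Because the spermathecal values are so low, the size of these differences depends on the pseudocount. With no pseudocount and with one of 20, the difference in wild type on 1633385_at was -5.85 and -2.52. The sign was negative under each of these settings.

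In the lower tract the mutant exceeded wild type in Karl by a log2 difference of 0.22 on 1628715_a_at, between means of 219 ± 23.2 and 255 ± 12.7 (SD, n = 2 each). On 1633385_at it was 0.89, with a 95% interval from -0.01 to 1.80, between means of 107 ± 30.4 and 202 ± 52.8. The probe sets thus gave the same sign and different sizes. Of all probe sets, 2.47% were called higher in the mutant lower tract and 25.3% were higher without overlap. In the spermathecae the genotype difference was -0.27 (SE 0.30) on 1628715_a_at and 0.17 (SE 0.40) on 1633385_at, with opposite signs.

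The 3 genes therefore had different patterns over the 4 groups. NLaz arrays separated by genotype in both organs and by organ in both genotypes. GLaz arrays separated by organ and overlapped between the genotypes. Karl arrays separated by organ, with a smaller gap between the lower tracts of the genotypes. Across the 8 arrays GLaz and Karl 1628715_a_at had a Pearson r of -0.95, and NLaz had r of -0.57 with GLaz and 0.59 with Karl 1628715_a_at. The 8 arrays fall into 2 organs, so these correlations describe the group pattern and carry no p. These organs are mixtures of cells, so fewer cells of a type and less RNA per cell cannot be told apart.

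**Figure D2:**
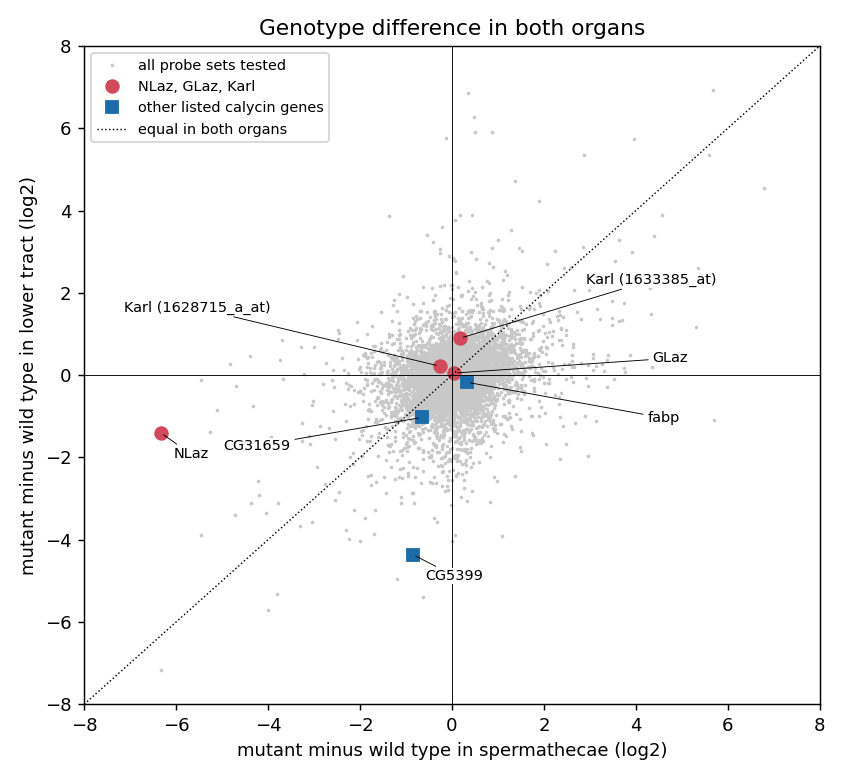
Genotype difference in the lower tract against that in the spermathecae, both as log2 mutant minus wild type, for all 10113 probe sets (grey), the 4 lipocalin probe sets (red) and the other listed calycin genes (blue). NLaz lies at -6.34 in spermathecae and -1.40 in lower tract, CG5399 at -0.85 and -4.36, and GLaz near 0 on both axes.

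Likeness to a lipocalin was measured as the root mean square (RMS) difference between profiles over the 8 arrays, each centred on its own mean log2 signal, among 8558 probe sets with 1 symbol. Smaller values are more alike. The nearest to NLaz was Rnf11, a RING finger gene, at an RMS of 1.07 and Pearson r of 0.94. Its mean signal was 752 ± 179 in wild-type and 12.4 ± 2.47 in mutant spermathecae, and 444 ± 9.73 and 122 ± 33.9 in the lower tracts (SD, n = 2 each). Next came CG10211 at 1.20, CG4839 at 1.31, CG8008 at 1.41 and Obp57c, an odorant-binding protein gene, at 1.46. All 5 had their lowest mean in mutant spermathecae, a shared feature that the choice by likeness favours.

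The nearest profiles to GLaz and Karl lay at smaller distances. For GLaz these were fwe (flower, a membrane protein gene) at 0.11, CG33635 at 0.13, Srp19, a signal recognition particle subunit, at 0.14, and ex (expanded, of the Hippo pathway) and CG3652, both at 0.15. The mean signal of fwe was 1098 and 1117 in wild-type and mutant spermathecae and 354 and 399 in the lower tracts. For Karl 1628715_a_at the nearest were nrv2, a sodium pump subunit, at 0.18, CG3630 at 0.20, cmb and CG14298, both at 0.21, and obst-E, a chitin-binding protein gene, at 0.23. In wild type the mean signal of nrv2 was 257 in spermathecae and 2409 in the lower tract, and in the mutant it was 221 and 2749. The second Karl probe set lay farther from the first than all 5 of these genes did, at an RMS of 0.68.

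**Figure D3:**
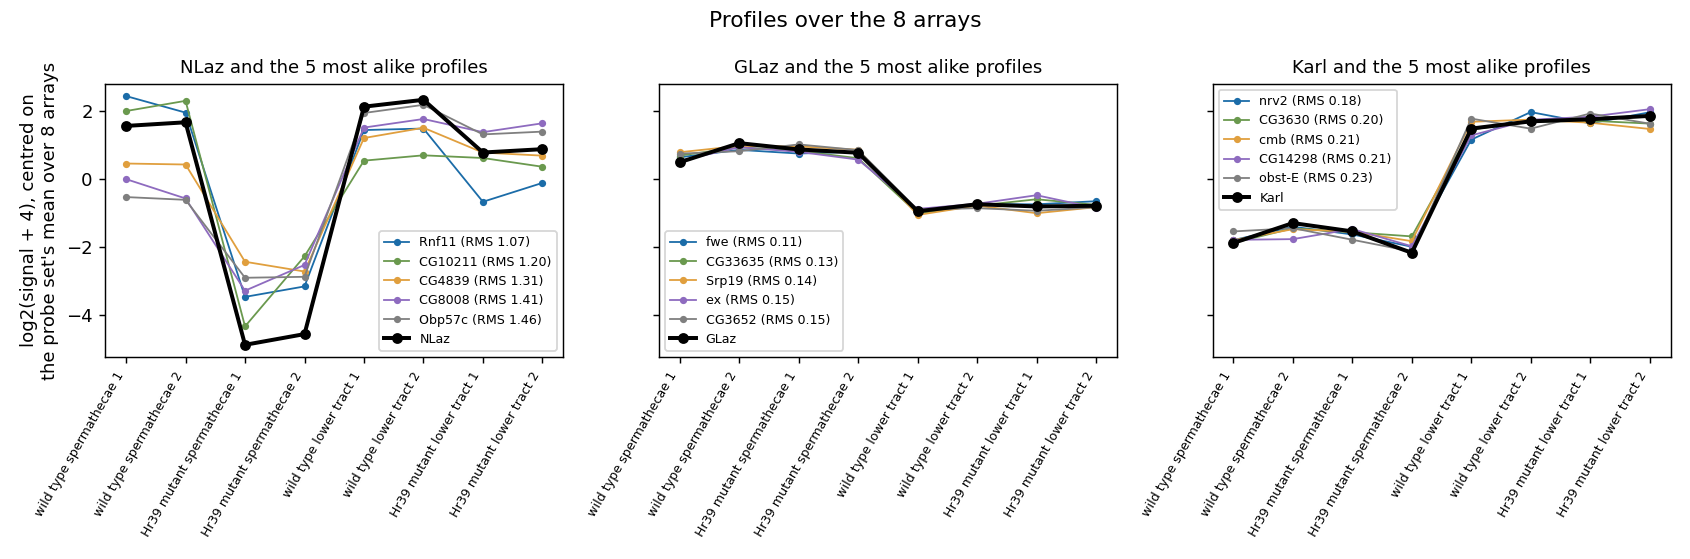
Profiles of NLaz, GLaz and Karl (1628715_a_at) and of the 5 genes nearest to each, as log2(signal + 4) centred on each probe set's mean over the 8 arrays. The genes nearest to NLaz are at RMS differences of 1.07 to 1.46 and none falls as low as NLaz on the mutant spermathecal arrays, while those nearest to GLaz and Karl follow them within 0.23.

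Beyond the 3 genes, the calycins, the wider group of lipocalin-fold proteins, were represented by CG5399, CG31659 and fabp, a fatty acid-binding protein gene. CG5399 and CG31659 were taken as lipocalin-like from general knowledge, since the files do not annotate the fold. Of the 3 probe sets, 1 was called lower in each organ of the mutant and 0 higher, and that 1 was CG5399 in both. Among all probe sets, 3.89% were called lower in mutant spermathecae and 3.33% in the mutant lower tract. The median log2 difference of the 3 was -0.65 in spermathecae and -1.03 in the lower tract, against 0.02 and -0.00 over all probe sets tested. Both medians are the values of CG31659 alone, a low-signal probe set that was not called. It passed the filter through wild-type spermathecae alone. In the lower tract it read 21.1 and 20.9 in wild type and 20.9 and 2.02 in the mutant, so the -1.03 rests on 1 array.

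CG5399 read 1698 and 2097 in wild-type and 854 and 1275 in mutant spermathecae. Its lower-tract signal was 635 and 853 in wild type and 30.3 and 33.7 in the mutant. The larger genotype gap of CG5399 was thus in the lower tract, and that of NLaz was in the spermathecae. CG5399 fell in the mutant lower tract by 4.36 on the log2 scale (SE 0.22, limma adjusted p 8.22e-06). In the spermathecae its difference was -0.85 (SE 0.22, limma adjusted p 0.0484), a call that was lost in 11 of the alternatives, with an adjusted p of up to 0.291. It was lost without either wild-type spermathecal array, mutant spermathecae replicate 1, or either mutant lower-tract array. The difference between the organs in the effect on CG5399 was 3.51 (SE 0.32, limma adjusted p 0.000398), the opposite sign of the -4.94 of NLaz. In wild type CG5399 was higher in the spermathecae by 1.35 (limma adjusted p 0.000861), where 22.2% of all probe sets were called higher and 21.5% lower.

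The other calycins were not called between the genotypes. CG31659, the gene next to NLaz on chromosome arm 2L, differed by -0.65 in the spermathecae (limma adjusted p 0.608) and by -1.03 in the lower tract (0.482). It was close to or below the array median on all arrays, between 2.02 and 22.8. The fabp gene read between 1985 and 3350 on the 8 arrays, with differences of 0.33 (limma adjusted p 0.269) and -0.17 (0.669).

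Fat body, the fly's lipid-storing tissue and a known site of NLaz expression, was followed through 10 marker probe sets, 1 for each of 10 of the 12 genes listed. Their summed signal was 41934 and 42081 in the wild-type and 27495 and 27838 in the mutant lower tract, so the mutant mean was 65.9% of wild type. The yolk protein genes Yp1, Yp2 and Yp3 made up 73.5% of the wild-type sum, and single markers differed. The mutant mean was 16.1% of wild type in fon, 38.2% in apolpp, 51.2% in Lsd-1 and 79.7% in Yp1. Lsp2 was at 103.6% and was not called (log2 difference -0.09, limma adjusted p 0.967). Fbp1 and Fbp2, which did not pass the filter, were at 176.4% and 552.8%. NLaz was at 37.7%. In the mutant lower tract 3.33% of all probe sets were called lower and 2.47% higher. Of the 8 markers that passed the filter, 3 were called lower there and 0 higher. They were fon, a clotting factor gene (log2 difference -2.61, limma adjusted p 0.000899), with apolpp and Lsd-1. Fbp1 and Fbp2 were below the array median on both wild-type lower-tract arrays, and in the mutant Fbp2 was above it on 1 of 2. In the spermathecae the sums were 29413 and 53071 in wild type and 39049 and 39230 in the mutant, which lie between the wild-type values. The higher wild-type sum came from the array with the actin ratio of 7.09. The mutant spermathecal mean of the sum was 94.9% of wild type. In these organs 1 of the 8, Lsd-1, was called higher, against 4.04% of all probe sets. The part of fat body in the lower-tract values of NLaz, CG5399 and the lipid genes below was not tested.

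**Figure D4:**
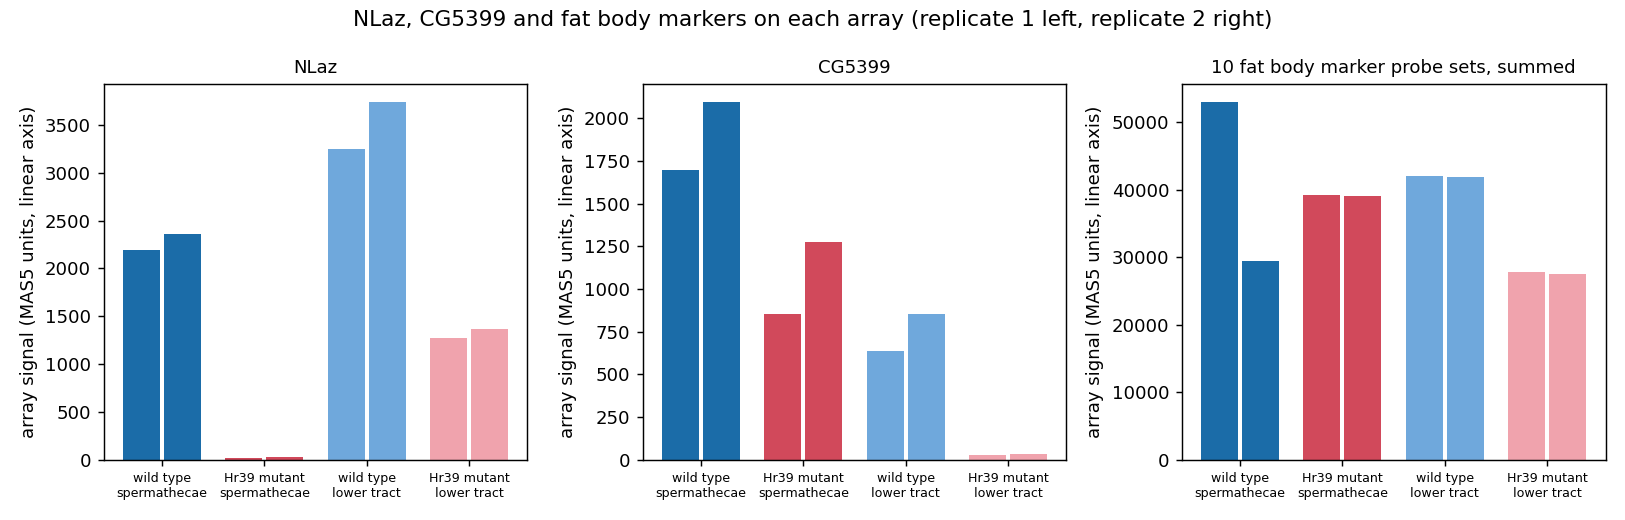
Signal of NLaz, of CG5399 and of 10 fat body marker probe sets summed, on each array (MAS5 units, linear axes from 0). In the lower tract all 3 are lower on both mutant arrays, and in the spermathecae the fat body sums of the mutant, 39049 and 39230, lie between those of wild type while NLaz is at 21.3 and 27.5.

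Lipid carriers and their receptors are the proteins that load, carry and take up hemolymph lipid. Of 6 probe sets tested in the list, 2 were called lower and 0 higher in the mutant lower tract, where 3.33% of all probe sets were called lower, and 0 were called in either direction in the spermathecae by limma, where 1 had an unadjusted p under 0.05. The median log2 difference was -0.93 in the lower tract and -0.18 in spermathecae. Apoltp, the apoprotein of the lipid transfer particle, read 547 and 495 in the wild-type and 103 and 98.5 in the mutant lower tract. It fell by 2.33 on the log2 scale (limma adjusted p 0.000317). The main lipoprotein gene apolpp, also a fat body marker, read 4620 and 4841 in wild type and 1666 and 1952 in the mutant, and fell by 1.39 (limma adjusted p 0.0100). Its call was lost without wild-type lower tract replicate 1 or without either mutant lower-tract array, with an adjusted p of up to 0.124.

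In wild type all 6 of these probe sets were called lower in the spermathecae than in the lower tract, against 21.5% of all probe sets, with a median of -1.15 against 0.07. Leaving out replicate 2 of either wild-type group gave 3, and leaving out replicate 1 of the wild-type lower tract gave 4. The count was also 3 with each array centred on its median or without a variance trend, and 4 with only the 4 arrays compared. They included LpR1, a lipophorin receptor (-2.01, limma adjusted p 4.27e-05), Apoltp (-1.46, 0.000522), Mtp, the microsomal triglyceride transfer protein (-1.25, 0.00237), and apolpp (-0.83, 0.0225). The apolpp call was lost without wild-type spermathecae replicate 2 or either wild-type lower-tract array, at up to 0.116, and with each array centred on its median.

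Carotenoid and retinoid handling genes, several of them receptors and enzymes for ligands of the kind that lipocalins carry in vertebrates, had 5 of 9 probe sets tested. Of these, 2 were called higher in mutant spermathecae and 1 in the mutant lower tract, with 0 lower in either, and the medians were 0.78 and 0.19. Of all probe sets 4.04% and 2.47% were called higher in these organs. Pdh, a retinol dehydrogenase, read 31.7 ± 2.50 in the wild-type and 133 ± 3.07 in the mutant lower tract (SD, n = 2 each), a rise of 1.95 (limma adjusted p 0.00359, and 0.0563 without mutant lower tract replicate 1). Pdh was also called in the spermathecae (1.21, limma adjusted p 0.0316), where the call was lost without wild-type or mutant replicate 2 and without either mutant lower-tract array, at up to 0.239. The scavenger receptor gene emp rose by 0.78 in mutant spermathecae (limma adjusted p 0.0243), a call lost without wild-type replicate 1 or either mutant array, at up to 0.169. In wild type 2 of the 5 were called lower in the spermathecae, against 21.5% of all probe sets, emp (-1.21, limma adjusted p 0.000356) and crq, a CD36-family receptor (-1.02, 0.0121). The crq call was lost without wild-type spermathecae replicate 1 or wild-type lower tract replicate 2, at up to 0.0824.

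JNK signalling, upstream of NLaz in earlier fly work, was covered by 20 probe sets of 16 genes. In each organ 1 was called lower and 0 higher in the mutant, a share near the 3.89% and 3.33% of all probe sets called lower. The list's medians were -0.11 in spermathecae and 0.07 in the lower tract. It was the same probe set, 1639671_at of egr, the fly TNF ligand. It read 114 and 128 in the wild-type and 43.8 and 35.9 in the mutant lower tract (log2 difference -1.51, limma adjusted p 0.0175). In the spermathecae it differed by -1.24 (limma adjusted p 0.0362). The second egr probe set, 1629442_at, was not called in either organ, at -0.92 (limma adjusted p 0.425) and -0.65 (0.520). The lower-tract call was lost without any 1 of the 4 lower-tract arrays, at up to 0.141, and the spermathecal call without 6 of the 8 arrays, at up to 0.218. The phosphatase gene puc, the usual transcriptional readout of JNK, was not called, with differences of 0.03 (spermathecae) and 0.08 (lower tract).

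Between the organs of wild type the JNK list had 6 probe sets higher and 5 lower in the spermathecae, with a median of 0.34. Of all probe sets 22.2% were higher and 21.5% lower in this comparison, so the list's split is near the background. The receptor gene wgn was lower by -2.58 (limma adjusted p 6.19e-06). Gadd45 (1.64, limma adjusted p 0.000339), the kinase gene Mkk4 (1.34, 0.00106) and bsk, the JNK gene itself (0.88, 0.00162), were higher.

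The insulin and TOR pathway, which NLaz is known to dampen, had 15 probe sets tested, of which 1 was called lower in mutant spermathecae and 0 in either direction in the lower tract by limma, where 1 had an unadjusted p under 0.05. The spermathecal one was Pdk1, a kinase gene (log2 difference -0.77, limma adjusted p 0.0488), and its call was lost in 10 alternatives, at up to 0.218, among them leaving out any 1 of the 4 spermathecal or the 2 mutant lower-tract arrays. The list's medians were -0.20 and -0.07. Of all probe sets 3.89% were called lower in mutant spermathecae and 5.80% in either direction in the mutant lower tract. With 15 probe sets, the list's 1 and 0 calls are near these shares. In wild type 5 were higher and 2 lower in the spermathecae, where 22.2% and 21.5% of all probe sets were. ImpL2, a secreted insulin-binding protein gene, was lower (-1.55, limma adjusted p 0.000322). Akt (0.70, limma adjusted p 0.0116), Pdk1 (0.77, 0.0129) and Tsc1 (0.71, 0.0150) were higher, and each of these 3 calls was lost without wild-type lower tract replicate 1, at 0.0751, 0.0740 and 0.0520.

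Fat storage and mobilisation genes had 14 probe sets tested. In the mutant lower tract 3 were called lower and 1 higher, with a median of -0.31, and in mutant spermathecae 2 were called higher and 0 lower, with a median of 0.22. Of all probe sets 3.33% were called lower and 2.47% higher in the mutant lower tract, and 4.04% higher in mutant spermathecae. Lsd-1, a lipid droplet perilipin, read 573 and 533 in the wild-type and 276 and 291 in the mutant lower tract (-0.96, limma adjusted p 0.0163). In the spermathecae Lsd-1 read 130 and 105 in wild type and 226 and 174 in the mutant (0.75, limma adjusted p 0.0407). The other perilipin gene Lsd-2 also rose there (0.92, limma adjusted p 0.0154). Lower in the mutant lower tract were also AkhR, the adipokinetic hormone receptor (-1.44, limma adjusted p 0.0248), and the triglyceride lipase gene bmm (-0.63, 0.0363), while the lipase gene Lip4 was higher (1.04, 0.0355).

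Each of these fat storage calls depended on single arrays. For Lsd-1 the lower-tract call was lost without wild-type replicate 1 or either mutant lower-tract array, at up to 0.157, and the spermathecal call without any array but wild-type spermathecae replicate 1, at up to 0.249. That of Lsd-2 was lost without wild-type or mutant spermathecae replicate 2, at up to 0.147. AkhR lost its call without any 1 of the 4 lower-tract arrays, at up to 0.169. The calls of bmm and Lip4 were lost without 6 and 5 of the 8 arrays, at up to 0.309 and 0.287.

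Between organs of wild type 9 fat storage probe sets were called lower and 2 higher in the spermathecae, against 21.5% and 22.2% of all probe sets, with a median of -0.92. Lip4 (-2.58, limma adjusted p 2.00e-05), Lsd-1 (-2.21, 9.81e-06), whd, the carnitine palmitoyltransferase gene (-1.39, 4.66e-05), and FASN1, a fatty acid synthase gene (-1.36, 0.000170), were among those lower. NLaz was also lower in wild-type spermathecae, by 0.61 on the same scale.

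Oxidative stress defence, the setting in which GLaz and NLaz are best known, had 15 probe sets tested, with 2 called higher and 0 lower in mutant spermathecae, where 4.04% of all probe sets were called higher. In the mutant lower tract 1 was called lower. The medians were 0.02 and 0.08, and 3.33% of all probe sets were called lower in that organ. Sod3, the extracellular superoxide dismutase gene, read 41.4 and 48.1 in wild-type and 114 and 151 in mutant spermathecae on 1622906_at (1.47, limma adjusted p 0.00419, and 0.0583 without mutant spermathecae replicate 2). Its second probe set 1636961_a_at went the other way and was not called (-0.65, limma adjusted p 0.106). The metallothionein gene MtnA rose by 0.65 (limma adjusted p 0.0388), a call that was lost without any array but wild-type spermathecae replicate 1, at up to 0.176, and with the replicate number as a block.

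GstS1, a glutathione transferase, read 151 and 175 in the wild-type and 78.7 and 86.5 in the mutant lower tract (-0.95, limma adjusted p 0.00616, and 0.0810 without mutant lower tract replicate 1). With the replicate number as a block, 2 of this list were called in the lower tract and 1 in the spermathecae. In wild type 7 of the 15 were called higher and 2 lower in the spermathecae, against 22.2% and 21.5% of all probe sets. They included GstS1 (2.31, limma adjusted p 1.77e-06), Cat, the catalase gene (1.45, 2.21e-05), and maf-S (1.36, 0.000466), all higher as GLaz was, and MtnA, which was lower (-1.06, 0.000524).

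**Figure D5:**
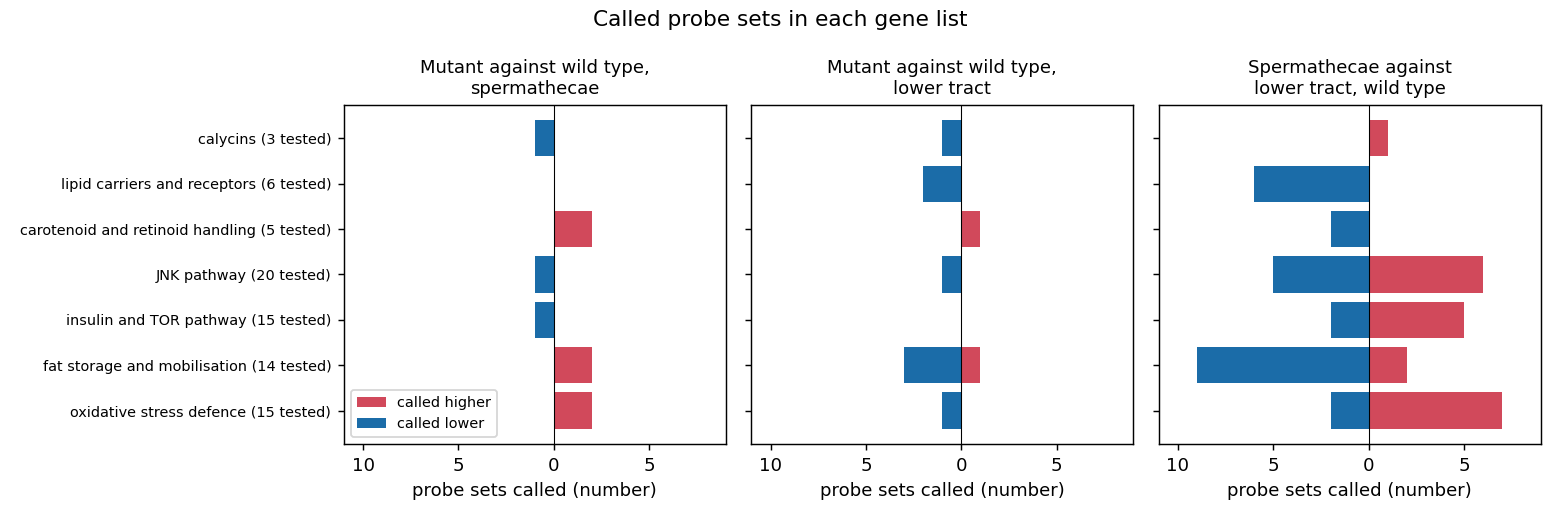
Number of probe sets called higher (red, to the right) and lower (blue, to the left) in each gene list, for the genotype comparison in both organs and the organ comparison in wild type. At most 4 probe sets of a list were called between the genotypes in an organ, while between the organs of wild type all 6 lipid carriers and receptors (3 with median centring or without 1 of the arrays) and 9 of 14 fat storage probe sets were called lower in the spermathecae.

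Glial markers, with probe sets for 9 of the 10 genes listed, were set beside GLaz and Karl. Of the 6 tested, 0 were called between the genotypes by limma in either organ, though 3 had an unadjusted p under 0.05 among the spermathecal differences and 1 among those of the lower tract. Their sum was between 3321 and 3707 in wild-type and between 2525 and 2820 in mutant spermathecae, and between 6254 and 7705 in the wild-type and 7528 and 7605 in the mutant lower tract. The brightest members of the sum were Gs2, at 1811 in wild-type spermathecae and 3556 in the wild-type lower tract, and nrv2, the gene nearest in profile to Karl, at 257 and 2409. Between the organs of wild type 22.2% of all probe sets were called higher and 21.5% lower in the spermathecae. Single glial markers differed in direction in this comparison, with 1 of the 6 called higher and 2 lower in the spermathecae. The receptor gene moody was higher there, at 883 against 468 (log2 difference 0.90, limma adjusted p 0.00379), and Gs2 (-0.97, 0.000469) and nrv2 (-3.17, 8.43e-06) were lower. The transcription factor gene repo was not called (-0.83, limma adjusted p 0.0548). The part of glia in the GLaz and Karl values was not tested. Muscle and germline markers moved with the organ too. Germline sums were 3991 and 749 in the wild-type lower tract and between 633 and 930 in that of the mutant, against 82.2 to 151 in the spermathecae. Of 8 hemocyte, 3 neuron and 2 pericardial marker probe sets tested, limma called 1, 0 and 0 between the genotypes in spermathecae, and the lower tract had 1, 1 and 0. Among all probe sets, 7.93% and 5.80% were called in either direction in these organs. The hemocyte marker Col4a1 was lower in mutant spermathecae (-0.75, limma adjusted p 0.0467). The other tested hemocyte markers went both ways there, from -0.70 (eater) to 0.52 (NimC1), and the list's median was -0.22. In the mutant lower tract NimC1, of hemocytes (2.82, limma adjusted p 0.00102), and nSyb, of neurons (2.54, 0.0443), were higher. The nSyb probe set passed the filter through the mutant lower tract alone, so its call there carries no weight of its own. There the other tested hemocyte markers ran from -0.54 (Col4a1) to 0.80 (Hml), and the neuron markers elav and para were at 0.08 and -0.47. No leaving-out result is given for these marker calls.

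The nearest tested genes on each side of a lipocalin gene, 2 a side by gene order, were compared with it. Only tested genes were taken, so they need not be adjacent to it. Around NLaz, 1 of 4 was called higher in each organ of the mutant and 0 lower. Among all probe sets, 4.04% were called higher in mutant spermathecae and 2.47% in the mutant lower tract. The gene called was CG5397, which is not adjacent to NLaz and stands at -14 from it in gene order. Of the 4 only CG31659, at -1, is adjacent, and those on the other side stand at 6 and 9. CG5397 differed by 1.53 in the spermathecae (limma adjusted p 0.00816) and 1.09 in the lower tract (0.0486), the opposite sign of NLaz. The spermathecal call was lost without mutant spermathecae replicate 2, at 0.0745, and the lower-tract call was lost without 6 of the 8 arrays, at up to 0.329, and with the replicate number as a block. Of the 4 genes around GLaz on chromosome arm 2R and the 4 around Karl on X, 0 were called between the genotypes by limma in either organ and 0 had an unadjusted p under 0.05, with log2 differences between -0.90 and 0.57.

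In the organ comparison of wild type, CG15870, next to GLaz, was higher in the spermathecae as GLaz was (1.73, limma adjusted p 0.0182), a call lost without either wild-type spermathecal array or wild-type lower tract replicate 1, at up to 0.103. Near Karl, CG9360 was lower in the spermathecae (-5.37, limma adjusted p 4.99e-06) and the chaperone gene Hsc70-3 was higher (2.14, 5.56e-06).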

How the data were processed

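RNA of 2 organs and 2 genotypes was measured on 8 arrays, 2 a group, with groups taken from the sample labels. The deposited intensity values are linear MAS5 signals, per the submitters' processing notes (no version is named), and their trimmed mean was 150 on every array. No genome build or detection calls are given in the sources used here. Of 18952 probe sets, 183 controls were left out. Genes were named from the platform annotation, checked by Entrez identifier (13544 of 13647 probe sets with 1 symbol matched). A RefSeq gene table (assembly Release 6 plus ISO1 MT) served for names, chromosome arms and gene order only. Arrays have no read depth, and their number limits the precision.

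The fit used limma 3.58.1 (R 4.3.3; lmFit and two-sided eBayes tests with a trend in the variance) on log2(signal + 4), with 1 mean per group, 4 residual degrees of freedom and Benjamini-Hochberg adjustment over 10113 probe sets. The filter asked for a signal at or above the array median on both arrays of 1 group or more. The steps were tested on simulated data. The 5 comparisons were the genotypes in each organ, the organs in each genotype and the interaction.

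The lipocalin genes, the 7 gene lists and the marker lists were chosen with earlier results of these data known. The genes named were the 3 lipocalins, the 5 genes nearest in profile to each, and up to 4 called probe sets of each list and comparison by adjusted p. Markers, neighbours and the second probe sets of named genes are named besides. Alternatives were quantile normalization, median centring, no pseudocount or one of 20, no filter or one at the 75th percentile, no variance trend, robust variance, only the 4 arrays compared, a replicate block and leaving out each array. A planned search of promoters for motifs was not run, as no promoter sequences were used here.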

Additional observations from a re-analysis of the deposited data

Results flagged for a closer look

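The mutant effect differed between the organs for 6 probe sets of the gene lists, by the interaction term of the limma fit (effect in spermathecae minus effect in lower tract, on the log2 scale), where 3.05% of all probe sets were called. All 6 were positive, so the difference of mutant minus wild type was the more negative in the lower tract, the opposite sign of NLaz. Among all probe sets, 1.76% were called positive and 1.29% negative. The 6 were 1 of 3 calycins, 2 of 6 lipid carriers, 2 of 14 fat storage and 1 of 15 oxidative stress probe sets tested. Limma called 0 of 20 JNK, 15 insulin and TOR and 5 carotenoid probe sets. Of these, 2, 3 and 1 had an unadjusted p under 0.05. The lipocalin-like CG5399 had 3.51 (adjusted p 0.000398), Apoltp had 2.12 (0.00644) and GstS1 had 1.46 (0.00641), and these 3 kept the call in every alternative run. Lsd-1 had 1.70 (0.00838), and lost the call without mutant lower tract replicate 1 (0.0623). The lipoprotein gene apolpp had 1.68 (0.0353) and FASN1 had 1.13 (0.0419). Their calls were lost in 8 and 10 alternatives, at up to 0.178 and 0.180, among them leaving out any 1 of the 2 mutant spermathecal and 4 lower-tract arrays. Of these genes apolpp, Lsd-1 and FASN1 are also fat body markers, whose sum in the mutant lower tract was 65.9% of wild type, and its part in these differences was not tested.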

How the results depend on the processing

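The log2 differences of NLaz, GLaz and Karl kept their direction under all alternatives other than leaving out an array, and no count of calls over all probe sets moved beyond 1.5 times under these. With no pseudocount and with one of 20, NLaz gave -6.56 and -5.70 in mutant against wild-type spermathecae, -5.77 and -4.92 between the mutant organs and -5.15 and -4.31 for the interaction. For Karl 1628715_a_at these gave -3.97 and -2.91 between the mutant organs, and 20 gave -2.55 in wild type. For 1633385_at they gave -6.51 and -3.27 in the mutant and -5.85 and -2.52 in wild type. Median centring gave NLaz -5.39 and -0.45 between the organs of mutant and wild type. It shifted the median of all probe sets by 0.17 and 0.16 in wild type and mutant organs, and quantile normalization shifted wild type by 0.11.

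Leaving out 1 array turned the sign only of the genotype difference and interaction of GLaz and of the spermathecal genotype difference of both Karl probe sets. It moved GLaz in spermathecae between -0.23 and 0.33 (genotype), 1.34 to 1.90 (wild-type organs) and -0.28 to 0.28 (interaction). Karl 1628715_a_at ran from -0.58 to 0.048, -3.98 to -3.35 (mutant organs) and -0.80 to -0.17, and 1633385_at from -0.24 to 0.58, -5.36 to -4.54 and -1.14 to -0.31. Calls ran from 313 to 1132 in spermathecae (802 with all arrays), 178 to 713 in the lower tract (587) and 116 to 440 for the interaction (308).

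Of the lists, calycins had 0 called in spermathecae under quantile normalization, centring, no pseudocount, no filter, no trend and 4 arrays only (0 to 1 leaving out an array). Carotenoid genes had 0 in the lower tract at the 75th percentile (0 to 1) and 1 in spermathecae under 5 settings (0 to 2; wild-type organs 1 to 3). Fat storage had 1 in the lower tract without filter (0 to 5) and 1 or, without trend, 0 in spermathecae (0 to 4). Insulin and TOR had 1 in the lower tract with 4 arrays (0 to 1), 0 in spermathecae under 4 settings (0 to 1) and 4 or 3 between wild-type organs without trend or with 4 arrays (2 to 6). JNK had 0 in the lower tract at the 75th percentile (0 to 1), 0 in spermathecae under 3 settings (0 to 2) and 7 between wild-type organs under 2. Lipid carriers had 1 in the lower tract without trend (1 to 3) and 3 between wild-type organs under centring or without trend (3 to 6). Oxidative stress had 2 in the lower tract under 4 settings (0 to 2) and 1 in spermathecae under 6 (0 to 2). The causes were not tested. Of 82 called differences of list genes and neighbours, 45 kept the call in every alternative, 37 lost it in at least 1 and 0 turned direction.

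Replicate numbers did not pair the arrays, as same-numbered deviations correlated at -0.03 to 0.03. With the replicate block, calls were 775 in spermathecae, 569 in the lower tract, 4402 and 4641 between wild-type and mutant organs and 294 for the interaction. The interaction cannot be had from the 4 arrays of 1 organ and was not run. Array medians near 20 limit what low signals can show.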

Other observations

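Cyp4g1, a cytochrome P450 gene known from oenocytes, the fly's hydrocarbon-making cells, was looked at after its values were seen. It read 100 and 209 in wild-type and 666 and 1891 in mutant spermathecae, a log2 difference of 2.92 (limma adjusted p 0.00611). The arrays of the genotypes did not overlap there. Of all probe sets 4.04% were called higher in mutant spermathecae and 25.9% were higher without overlap. In the lower tract Cyp4g1 read 652 and 310 in wild type and 424 and 433 in the mutant and was not called (-0.07, limma adjusted p 0.971). The difference between the organs in this effect was not called either (2.99, limma adjusted p 0.0555). FASN3, another oenocyte gene, read 3.97 and 11.9 in wild-type and 30.1 and 39.8 in mutant spermathecae and missed the threshold (1.78, limma adjusted p 0.0558). FASN3 passed the filter through mutant spermathecae alone, the group in which it was high, so its difference there carries no weight of its own. The oenocyte marker list, whose brightest member was Desat1, summed to between 2548 and 3413 in wild-type and between 4466 and 5018 in mutant spermathecae. Desat1 itself read 2444 and 3192 in wild-type and 3770 and 3087 in mutant spermathecae, which overlapped. It was not called (0.29, limma adjusted p 0.505).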
